A study of Homo sapiens with 6 samples.

Results

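Transforming growth factor beta (TGF-beta) and bone morphogenetic protein (BMP) signalling was examined through 41 named genes: ligands, the proteins that bind them, receptors, SMADs, SMAD partners and target genes. Membership was by gene name, with no threshold on a measured value, but the list was chosen with earlier results of these data known. Of the 41 genes, 39 had a probe set on the array, 32 had one bright enough to be tested, 7 were measured only at low intensity, and BMPR1A and NOG were not analysed here. The 32 stand among 9241 genes tested in all. Expression was measured on 6 one-colour Affymetrix arrays of LNCaP, a human prostate cancer cell line that makes prostate-specific membrane antigen (PSMA, encoded by FOLH1). The 3 control arrays are of LNCaP cells grown in RPMI medium and described as untreated. The 3 knockdown arrays are of LNCaP cells in RPMI whose PSMA was lowered with a transduced retroviral shRNA-mir from TransOmics. No vector is named for the controls. The labels do not say how many hairpins or clones were used, or whether replicates were separate cultures, so p-values measure the spread between arrays, which may be technical.

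Ligands of this family bind pairs of type I and type II receptor kinases on the cell surface. The type I receptor then phosphorylates receptor SMADs, which join SMAD4 and enter the nucleus. TGF-beta and activin ligands act mainly through SMAD2 and SMAD3, and BMPs mainly through SMAD1 and SMAD5. The ID genes are the best known direct BMP targets: they encode helix-loop-helix proteins that lack a DNA-binding region and so block the factors they pair with. SMAD6 and SMAD7 are inhibitory SMADs, induced by the pathway and acting back on it. BAMBI resembles a type I receptor without the kinase and dampens signalling by joining receptor complexes. LNCaP cells are generally described as responding poorly to added TGF-beta.

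Values are log2 probe set intensities, and differences are knockdown minus control on that scale. A gene rose or fell where limma's p, adjusted by Benjamini-Hochberg over all 9241 genes, was under 0.05. The PSMA probe sets were lower in every knockdown array. The 3 bright ones shared by FOLH1 and its copy FOLH1B differed by -2.27, -2.23 and -2.72. The dimmer probe set assigned to FOLH1 alone differed by -0.79 (limma adjusted p = 0.0125), from 6.35, 6.44 and 6.35 in controls to 5.34, 6.05 and 5.37 in knockdown arrays. The 8 measured luminal markers averaged 6.43 or more in both groups. Of these, ACP3 (0.79), KLK2 (0.41) and TMPRSS2 (0.28) rose, KLK3 (-0.71), STEAP1 (-0.35) and HOXB13 (-0.25) fell, and KRT8 and KRT18 did not pass. Their summed linear intensity was 11970 to 12110 in controls and 10560 to 10830 in knockdown arrays. Of other cell types' markers, 1 of 3 basal, 2 of 4 endothelial, 2 of 3 leukocyte and 2 of 3 neuroendocrine genes passed the intensity filter, and of these only ENO2 passed the test, lower by 0.58. PTPRC, CDH5 and KDR were under log2 4 in every array. The summed linear intensity of 10 fibroblast and smooth muscle genes was 329.3 to 349.2 in controls and 460.4 to 467.2 in knockdown arrays. Of these 10 genes, 7 passed the filter, and COL3A1 (1.01) and ACTA2 (0.95) rose. COL1A1, DCN, PDGFRB, PDGFRA and MYH11 did not pass the test, and COL1A2, LUM and TAGLN did not pass the filter. The part of these marker differences in the results was not tested. In bulk RNA, fewer cells of a kind and less RNA per cell cannot be told apart.

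BAMBI showed by far the largest difference of the 32 genes, and it was downward, while all 4 ID genes rose. The windows around the start sites of these 5 genes are printed here because they are the member that moved most and the group whose members moved together. Each window runs from 250 bases before to 50 bases after the start, in RefSeq build GRCh38.p14, read 5′ to 3′ on the gene's own strand. RefSeq windows were found for 36 of the 41 genes. Capitals mark matches, on either strand, to the GC-rich SMAD element GGCGCC, the SMAD box CAGAC and the TATA box TATAAA.

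BAMBI, chr10:28677271-28677570, plus strand: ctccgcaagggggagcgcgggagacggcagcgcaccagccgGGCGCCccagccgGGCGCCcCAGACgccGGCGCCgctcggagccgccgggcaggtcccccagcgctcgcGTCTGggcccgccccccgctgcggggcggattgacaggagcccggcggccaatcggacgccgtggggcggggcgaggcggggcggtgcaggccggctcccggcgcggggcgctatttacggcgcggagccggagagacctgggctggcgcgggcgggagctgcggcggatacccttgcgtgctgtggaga
ID1, chr20:31605039-31605338, plus strand: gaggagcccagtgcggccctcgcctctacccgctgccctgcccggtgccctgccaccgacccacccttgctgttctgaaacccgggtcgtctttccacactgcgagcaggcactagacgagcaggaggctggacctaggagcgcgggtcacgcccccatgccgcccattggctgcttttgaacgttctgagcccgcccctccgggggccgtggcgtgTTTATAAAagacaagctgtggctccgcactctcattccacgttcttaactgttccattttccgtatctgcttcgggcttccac
ID2, chr2:8681806-8682105, plus strand: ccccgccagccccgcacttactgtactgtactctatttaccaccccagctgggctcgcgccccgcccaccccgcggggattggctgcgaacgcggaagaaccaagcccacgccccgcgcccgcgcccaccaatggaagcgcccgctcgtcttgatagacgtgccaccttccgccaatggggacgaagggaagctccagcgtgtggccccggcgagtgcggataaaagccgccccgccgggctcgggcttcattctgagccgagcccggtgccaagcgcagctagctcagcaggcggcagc
ID3, chr1:23559452-23559751, minus strand: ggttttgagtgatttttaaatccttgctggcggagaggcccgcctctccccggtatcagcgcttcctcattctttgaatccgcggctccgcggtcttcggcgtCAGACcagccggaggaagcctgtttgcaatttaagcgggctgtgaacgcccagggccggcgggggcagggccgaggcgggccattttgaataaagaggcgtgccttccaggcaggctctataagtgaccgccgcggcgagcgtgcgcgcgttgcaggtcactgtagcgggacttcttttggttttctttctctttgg
ID4, chr6:19837120-19837419, plus strand: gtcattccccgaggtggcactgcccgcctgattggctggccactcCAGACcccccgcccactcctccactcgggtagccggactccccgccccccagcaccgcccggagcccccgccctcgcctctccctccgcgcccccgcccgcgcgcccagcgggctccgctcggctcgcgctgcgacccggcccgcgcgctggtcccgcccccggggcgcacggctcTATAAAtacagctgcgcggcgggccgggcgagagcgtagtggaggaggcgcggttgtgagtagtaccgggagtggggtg

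The BAMBI window held 3 copies of GGCGCC, at positions -209 to -204, -196 to -191 and -181 to -176 from the start. It also held 2 CAGAC boxes, at -189 to -185 and, on the reverse strand, at -140 to -136. At least one GGCGCC is found in 19.2% of 35116 RefSeq windows of the same length, and 3 or more in 0.871%. The BAMBI window is 80% G and C, against a median of 58.7% over all windows. None of the ID windows held GGCGCC. ID3 and ID4 had 1 CAGAC each, a motif found in 45.3% of windows. ID1 and ID4 had a TATA box (11.5% of windows), at -31 to -26 and -29 to -24. In ID1 a reverse-strand match, at -33 to -28, overlaps the forward one. ID2 matched none of these letters, which says only that they are not in this window. Over the 72 windows of the listed genes, 22.2% held GGCGCC and 51.4% held CAGAC. Of these windows, 4.17% (3 windows, BAMBI's among them) held 3 or more copies of GGCGCC. The 72 windows belong to 36 genes, so some genes have more than 1. A match is a description of letters and not a binding site.

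BAMBI, the pseudoreceptor, measured 9.74, 9.87 and 9.73 in the control arrays and 7.58, 7.49 and 7.43 in the knockdown arrays. The groups were far apart, with each group's arrays close together. The difference was -2.28 (SE 0.06, 95% confidence interval -2.43 to -2.13, limma adjusted p = 9.44e-07), a level 4.86-fold lower. It ranked 20 by size among the 9241 genes. BAMBI has 1 probe set here, so no other probe set bears on it. Its 6 nearest tested neighbours in gene order, 3 on each side, differed by -0.15 to 0.37, and none of them fell.

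The ID genes rose together. ID3 showed the clearest rise, from 9.07, 9.03 and 9.07 in control arrays to 10.03, 9.78 and 9.95 in knockdown arrays. Every knockdown array lay above every control array, a difference of 0.86 (SE 0.07, adjusted p = 0.000134). ID2 measured 9.38, 9.34 and 9.65 in controls and 10.06, 9.87 and 10.24 in knockdown arrays, again without overlap. Its difference of 0.60 (SE 0.11, adjusted p = 0.00557) was nearly the same on its other probe set, also 0.60. Another ID2 probe set, shared with the pseudogene ID2B and outside the test, differed by 0.42.

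ID1 stood at 9.75, 9.63 and 9.73 in controls. The knockdown arrays measured 10.26, 9.997 and 10.28, all above the controls, a difference of 0.48 (SE 0.08, adjusted p = 0.00416). ID4 measured 5.43, 5.14 and 5.11 in controls and 5.55, 5.70 and 5.43 in knockdown arrays. Here the groups touched, because the lowest knockdown array equalled the highest control array. The ID4 difference was 0.33 (SE 0.10, adjusted p = 0.0399). Its second probe set rose by 0.76 without overlap, and the remaining one lay below log2 3 in all arrays. The ID4 call was lost without control replicate 2 (0.29, adjusted p = 0.114) or 3 (0.27, adjusted p = 0.117), and without knockdown replicate 1 (0.34, adjusted p = 0.0961) or 2 (0.26, adjusted p = 0.129). For ID1, ID2 and ID3, knockdown replicate 2 was the lowest of its group, and it remained above all controls.

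**Figure D1:**
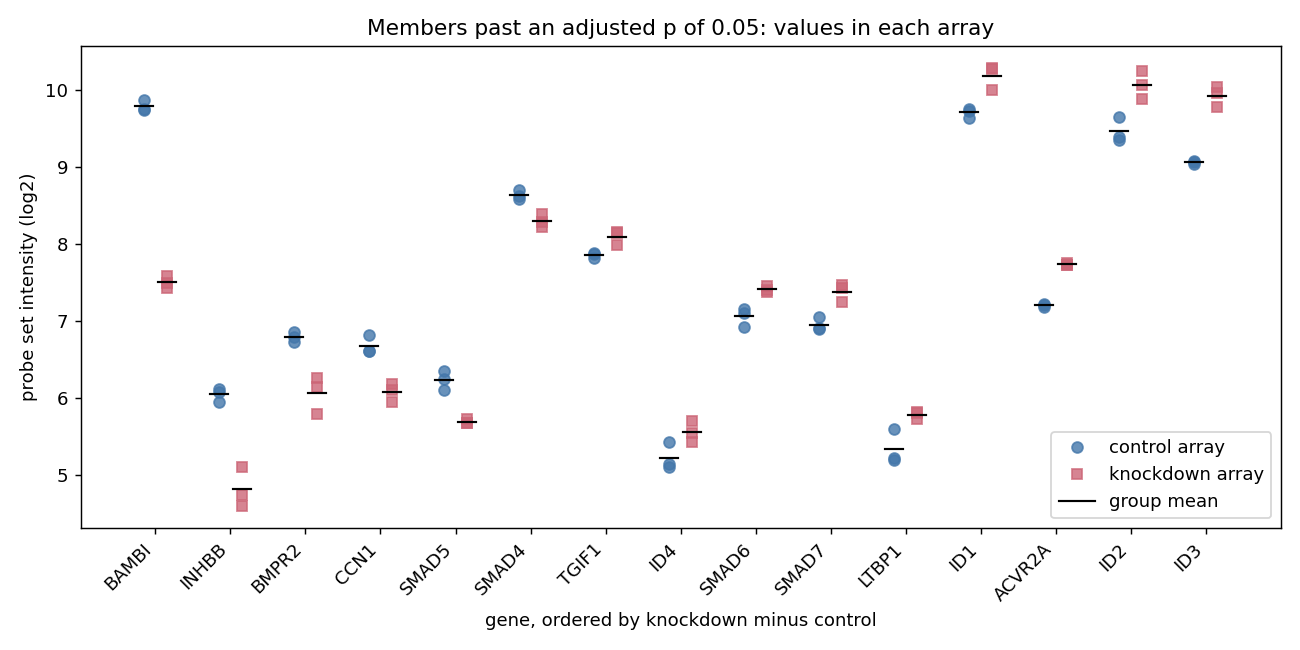
Log2 probe set intensity (vertical axis) in each control array (circles) and knockdown array (squares) for the 15 genes past an adjusted p of 0.05, ordered by their difference; bars are means of 3 arrays. BAMBI drops from 9.78 to 7.50 on average, and for every gene but ID4 the knockdown arrays lie wholly above or below the controls.

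The inhibitory SMADs rose with the ID genes. SMAD7, which blocks type I receptors and recruits ubiquitin ligases to them, measured 7.04, 6.91 and 6.90 in controls and 7.43, 7.25 and 7.47 in knockdown arrays. The groups did not overlap, and the difference was 0.43 (SE 0.07, adjusted p = 0.00369). SMAD6, which acts mainly on the BMP branch, measured 6.92, 7.11 and 7.16 in controls and 7.41, 7.38 and 7.45 in knockdown arrays. It too was higher in every knockdown array, by 0.35 (SE 0.07, adjusted p = 0.00747). Of its other probe sets past the filter, 2 dimmer ones differed by 0.29 and 0.13, in the same direction and without passing.

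No receptor SMAD rose, and 1 of 4 fell, where 19.4% of all genes rose and 16.5% fell. SMAD5, a BMP receptor SMAD, fell from 6.24, 6.34 and 6.10 to 5.67, 5.73 and 5.67, with no overlap. The SMAD5 difference was -0.54 (SE 0.07, adjusted p = 0.00099), and its dimmer probe set fell further, by 0.98. SMAD1, the other BMP receptor SMAD on the list, was lower in every knockdown array but small in difference, at -0.14 (SE 0.05, adjusted p = 0.0703). With the mean of its probe sets past the filter the SMAD1 difference was -0.30 and passed (adjusted p = 0.0156). SMAD2 and SMAD3, of the TGF-beta and activin branch, differed by 0.06 (95% interval -0.09 to 0.22) and -0.02 (95% interval -0.32 to 0.27) with overlapping arrays.

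SMAD4, the partner shared by both branches, fell modestly. Control arrays stood at 8.58, 8.69 and 8.62 and knockdown arrays at 8.29, 8.22 and 8.39, a separation larger than the spread in either group. The difference was -0.33 (SE 0.06, adjusted p = 0.00519). Its other probe set lay below log2 4 in every array.

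Among the receptors, 2 type II receptors moved in opposite directions. ACVR2A, an activin and BMP receptor, measured 7.21, 7.18 and 7.22 in controls and 7.76, 7.72 and 7.72 in knockdown arrays. Replicates differed by only a few hundredths within either group, so its rise of 0.53 (SE 0.05, adjusted p = 0.000166) had the smallest standard error of the 32. BMPR2, the dedicated BMP type II receptor, fell from 6.80, 6.86 and 6.72 to 6.14, 5.79 and 6.25. That fall of 0.73 (SE 0.11, adjusted p = 0.00242) was matched on its second probe set, at -0.82. Neither gene's arrays overlapped between groups. ACVR2B, related to ACVR2A, differed by 0.23 (SE 0.12, adjusted p = 0.16).

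The type I receptors did not pass on the probe sets that stood for them. ACVR1, which serves BMPs, differed by 0.09 (95% interval -0.08 to 0.26). ACVR1B, the activin type I receptor, differed by 0.08 on its brightest probe set (95% interval -0.07 to 0.22). A dimmer ACVR1B probe set, with no overlap between groups, differed by -0.53 (adjusted p = 0.0238 in a limma fit over probe sets). The probe sets of this gene therefore disagree. TGFBR3, the co-receptor that presents TGF-beta to its receptors, differed by 0.15 (adjusted p = 0.218).

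The receptors that TGF-beta itself needs were dim. TGFBR1 lay between 3.61 and 3.86 and the brighter TGFBR2 probe set between 3.10 and 3.76, under the level of log2 4 that a probe set had to reach in 3 arrays. BMPR1B was lower still, between 2.57 and 2.82. On that TGFBR2 probe set every knockdown array exceeded every control array, by 0.39 in the mean, and the other probe set differed by 0.05. In a limma fit with no filter, over 11963 genes, that TGFBR2 difference passed (adjusted p = 0.0186), and none of the other 6 dim members did.

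**Figure D2:**
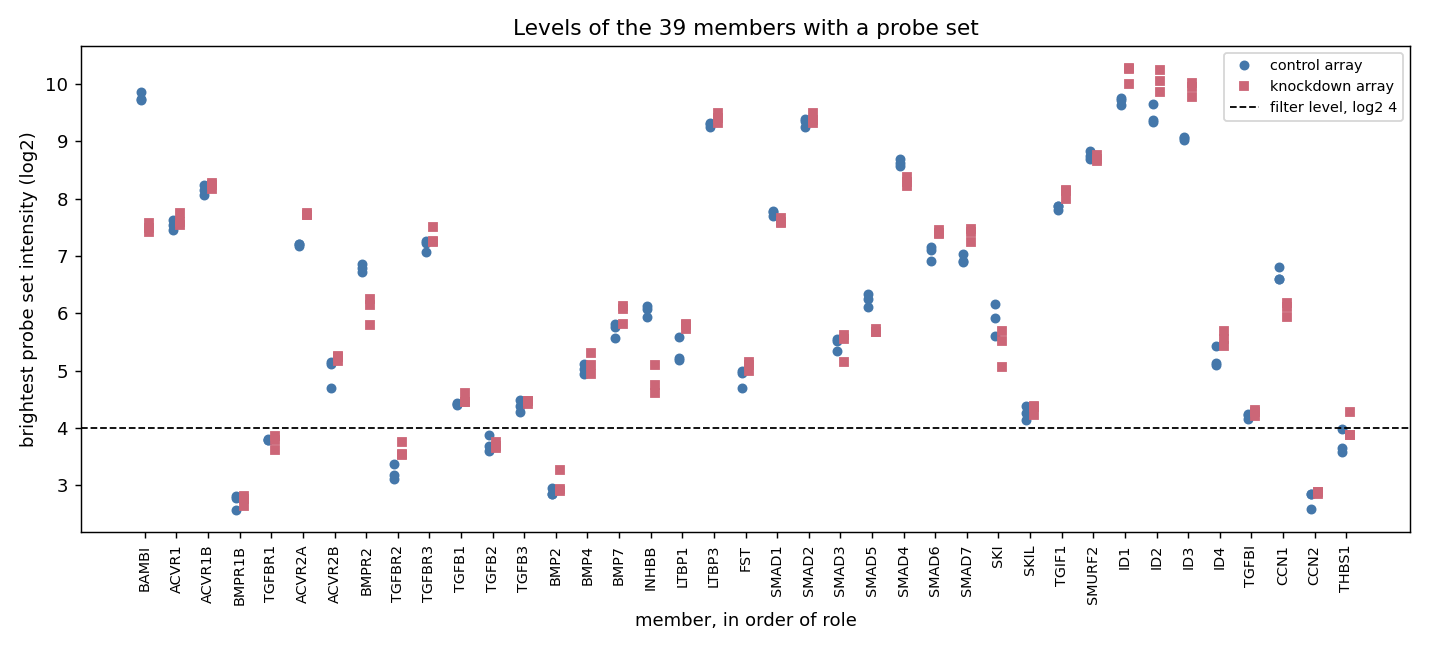
Log2 intensity of the brightest probe set (vertical axis) in 3 control (circles) and 3 knockdown arrays (squares) for the 39 genes with a probe set, in order of role; the dashed line is the filter level of log2 4. The TGF-beta receptors TGFBR1 and TGFBR2 and the matrix target CCN2 lie below the line, while ID1, ID2, ID3, LTBP3 and SMAD2 lie above 9 in all arrays.

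Most ligands were at low intensity. INHBB, the activin and inhibin beta B subunit, was the exception in its response, at 6.07, 6.12 and 5.94 in controls and 4.60, 4.74 and 5.11 in knockdown arrays. Its groups did not overlap, and the difference of -1.23 (SE 0.12, adjusted p = 0.000328) made it 2.34-fold lower, the second largest change after BAMBI. BMP7 was higher on average by 0.29 (SE 0.10, adjusted p = 0.0526), with 1 of 3 knockdown arrays level with the controls and another probe set at -0.02. That BMP7 call depended on the settings: without knockdown replicate 1 the difference was 0.38 (adjusted p = 0.0197). TGFB1, TGFB3 and BMP4 differed by 0.09, 0.08 and 0.09 and did not pass. BMP2 and TGFB2 did not reach the filter level, with ranges of 2.84 to 3.26 and 3.61 to 3.88.

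Of the proteins that hold ligands outside the cell, LTBP1, which stores latent TGF-beta in the matrix, rose on 1 of its 2 probe sets. The brighter one measured 5.22, 5.19 and 5.59 in controls and 5.73, 5.80 and 5.82 in knockdown arrays. Its groups did not overlap, although control replicate 3 lay well above the other controls, and the difference was 0.45 (SE 0.11, adjusted p = 0.0135). The other probe set differed by -0.10, the mean of both by 0.17 (adjusted p = 0.12), and without knockdown replicate 3 the call was lost (0.43, adjusted p = 0.0502). LTBP3, its relative, differed by 0.12 (adjusted p = 0.155). FST, which traps activin, differed by 0.20 (adjusted p = 0.121).

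Among SMAD corepressors and ligases, TGIF1, a homeodomain repressor that binds SMAD2, rose slightly. Controls measured 7.87, 7.87 and 7.81 and knockdown arrays 8.15, 8.14 and 7.99, a difference of 0.24 (SE 0.06, adjusted p = 0.0178). Its arrays did not overlap, but the call was lost without control replicate 3 (adjusted p = 0.0538), knockdown replicate 1 (adjusted p = 0.0561) or knockdown replicate 2 (adjusted p = 0.0663). SKI, a corepressor that binds SMAD4, had probe sets that disagreed, at -0.47 (adjusted p = 0.0846) and 0.24. Without control replicate 3 the brighter SKI probe set passed, at -0.61 (adjusted p = 0.049). SKIL and the ubiquitin ligase SMURF2 differed by 0.07 and -0.05.

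No matrix target rose, and 1 of the 2 tested fell, where 19.4% of all genes rose and 16.5% fell. CCN1, a secreted matricellular protein also induced by other signals, fell from 6.81, 6.60 and 6.61 to 6.19, 5.94 and 6.10. The groups were separate, the difference was -0.60 (SE 0.08, adjusted p = 0.0016), and its dimmer probe set also fell, by 0.32. TGFBI, named for its induction by TGF-beta, sat just above the filter at 4.20 and differed by 0.06. CCN2 (2.58 to 2.89) and the brightest THBS1 probe set (3.58 to 4.28) did not pass the filter.

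**Figure D3:**
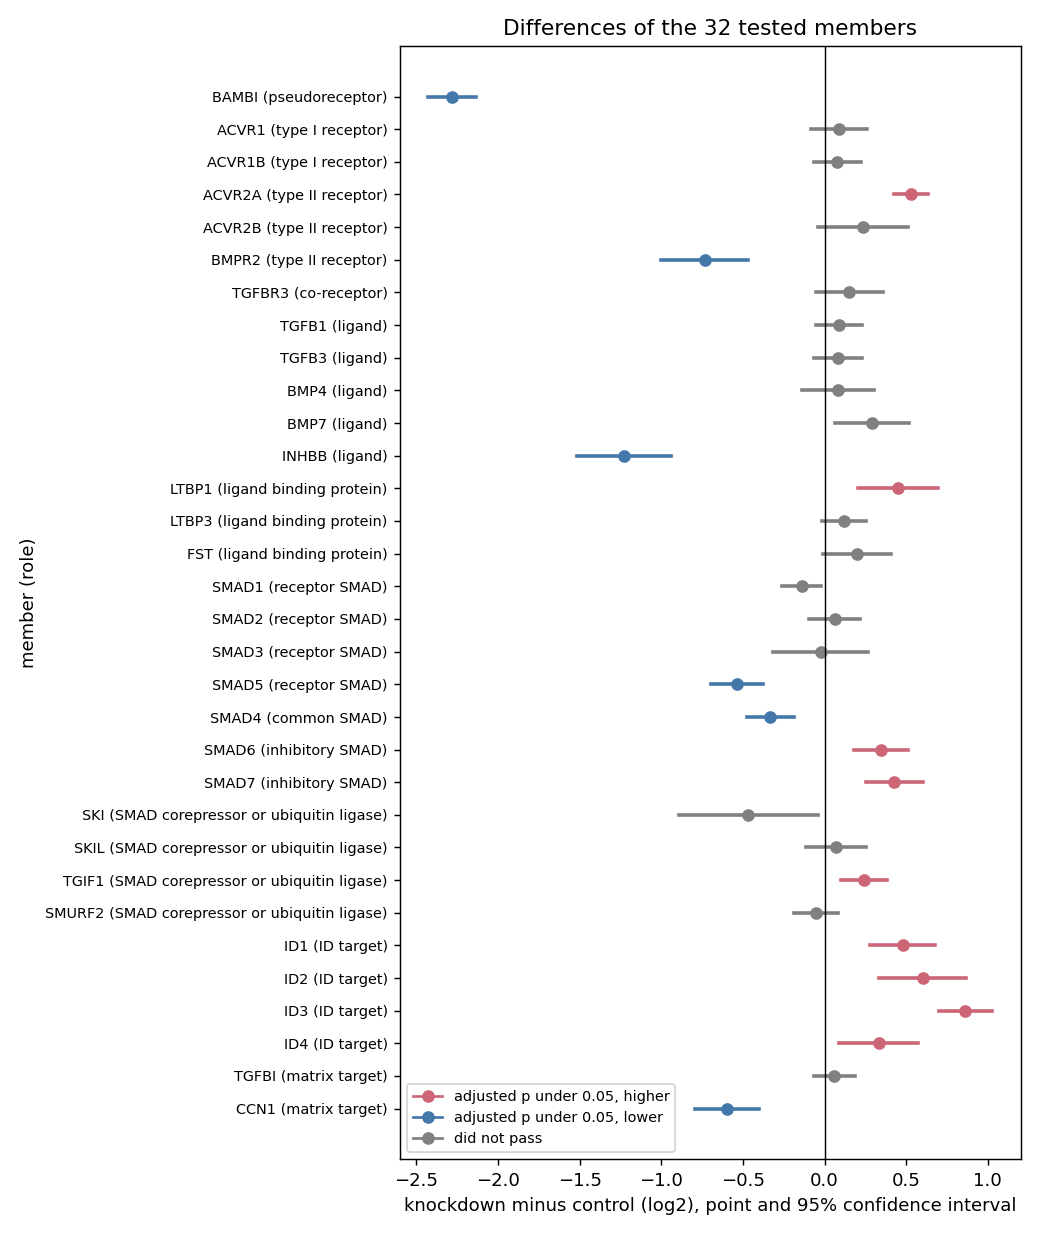
Knockdown minus control in log2 units (horizontal axis) with 95% confidence intervals from 3 arrays a group, for the 32 tested genes by role; red marks genes that rose, blue those that fell and grey those that did not pass. The 4 ID genes and both inhibitory SMADs lie right of 0, and BAMBI stands apart at -2.28.

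In all, 9 of the 32 tested genes rose, where 19.4% of all 9241 genes rose, and 6 fell, where 16.5% of all genes fell. Together 46.9% of the tested members passed, against 35.9% of all genes, so many genes of any kind passed in this comparison. Because the list was chosen with earlier results known, these shares do not test it. Of the 9 rises, 6 belonged to the ID genes and inhibitory SMADs. The arrays of both groups did not overlap for 18 of the 32, against 49.4% of all genes. The median difference was 0.09 for the 32 and 0.03 for all genes, and the median size regardless of sign was 0.27 against 0.15. Changes of at least 2-fold were limited to BAMBI and INHBB among the 32 tested members, both lower. Over all 9241 genes, 80 rose and 93 fell by at least 2-fold. The other 17 genes differed by -0.47 to 0.29.

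Probe sets of the same gene could be compared for 13 members. In the 7 of these that passed, 7 of 8 other probe sets past the filter differed in the same direction as the brightest, the exception being LTBP1. In the 6 that did not pass, 4 of 9 did so.

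**Figure D4:**
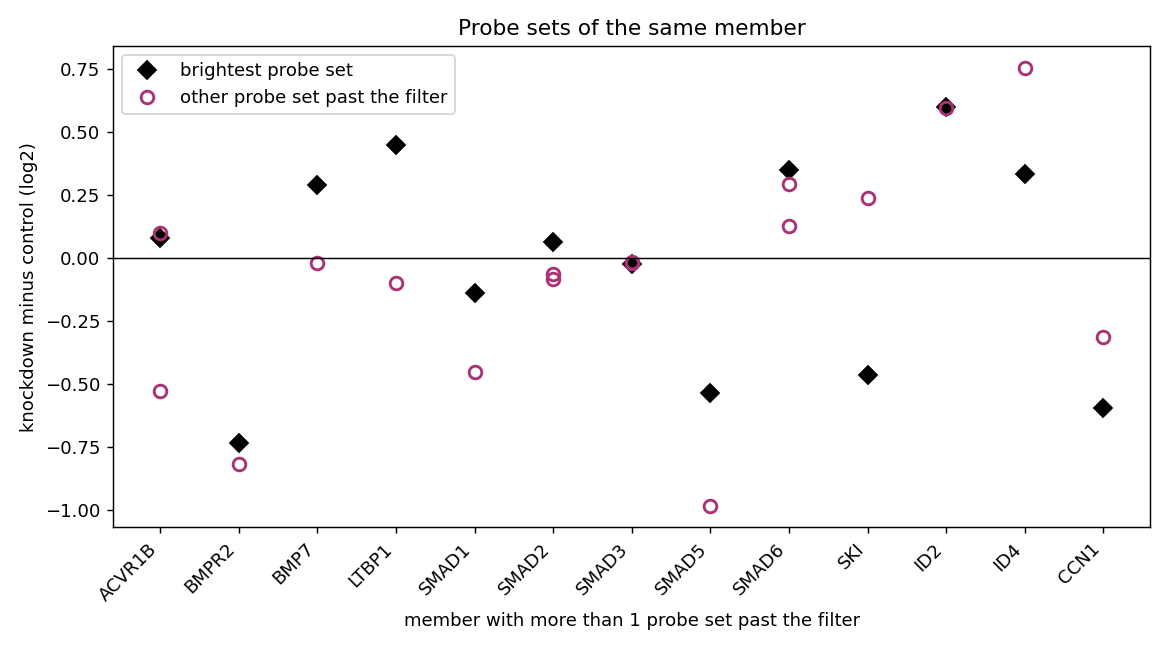
Knockdown minus control in log2 units (vertical axis) for the brightest probe set (diamond) and the other probe sets past the filter (circles) of the 13 genes with more than 1. BMPR2, SMAD5, SMAD6, ID2, ID4 and CCN1 keep 1 direction on all of them, whereas SKI, LTBP1, ACVR1B, BMP7 and SMAD2 have probe sets on both sides of 0.

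Genes next to the members on the chromosome were read to show whether a member moved alone or with its neighbours. Gene order came from RefSeq, and for each of the 15 genes that passed the 3 nearest tested genes on either side were read. Of these 90 neighbours, 25 rose and 10 fell, where 19.4% of all 9241 genes rose and 16.5% fell. For ID4, 5 of 6 neighbours rose, among them NUP153 (0.43), TPMT (0.31), SOX4 (0.30) and E2F3 (0.29), with a median of 0.30 beside the 0.33 of ID4 itself. For LTBP1, 5 of 6 neighbours also rose, such as TTC27 (0.58), FEZ2 (0.44) and FAM98A (0.43), with a median of 0.38 beside 0.45. The neighbours of ID3 included no gene that passed, and ranged from -0.12 to 0.15. ID1 and ID2 exceeded every neighbour, whose highest differences were 0.25 and 0.45. Around INHBB, CCN1 and SMAD5 no neighbour fell as far as the member, whereas CARF, beside BMPR2, fell by 0.75 and ME2, beside SMAD4, by 0.48. SMAD6 (0.35) and SMAD7 (0.43) each had a neighbour with a larger rise, MAP2K5 at 0.39 and CXXC1 at 0.50, and the neighbour of TGIF1, ARHGAP28, rose by 1.84. What neighbours share with ID4 and LTBP1 was not tested.

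**Figure D5:**
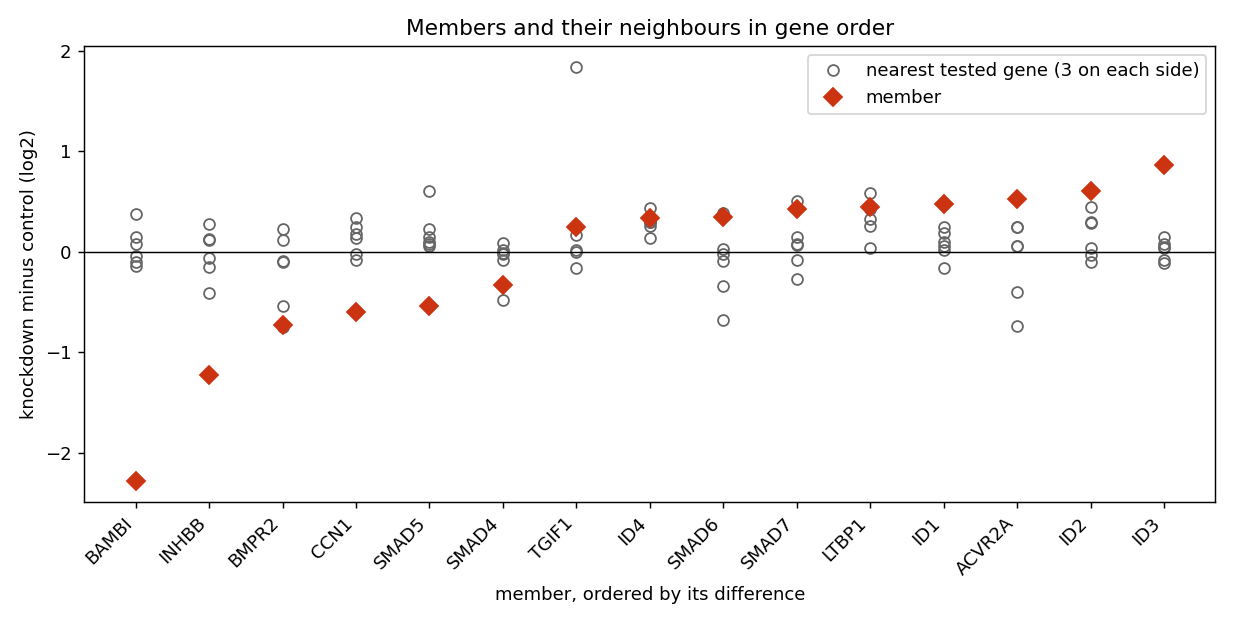
Knockdown minus control in log2 units (vertical axis) for each of the 15 genes past an adjusted p of 0.05 (filled diamonds) and its 6 nearest tested genes in RefSeq order (open circles). BAMBI, INHBB, CCN1, SMAD5, ID1, ID2, ID3 and ACVR2A stand outside the range of their neighbours, while BMPR2, SMAD4, TGIF1, ID4, SMAD6, SMAD7 and LTBP1 lie within it.

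The array's own controls also separated the groups. The signal at the 5′ end relative to the 3′ end was lower in knockdown arrays by 0.82 for beta-actin, with log2 ratios of -2.77 ± 0.12 and -3.59 ± 0.22 (SD, n = 3), and by 0.10 for GAPDH. It was lower by 0.96 for dap, a Bacillus transcript used as a spike-in. For the other Bacillus spike-ins, thr, phe and lys, it was lower by 0.46, 0.41 and 0.31. The hybridisation controls stood at 11.34 ± 0.08 and 10.51 ± 0.13 (SD, n = 3). Each of these differences gave p = 0.1 in a two-sided exact permutation test, and this group size cannot give a smaller one. Where each probe set lies along its transcript was not used here, so the part of these differences in the falls of the 6 lower genes was not tested.

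Another 112 genes of the superfamily were read from the same fit, of which 76 were tested. Of these, 19 rose and 10 fell (38.2% in all, against 35.9% of all genes), with a median difference of 0.08. Intracellular regulators, 31 of the 76 tested, had 11 rises and 4 falls. Over all 9241 genes, 19.4% rose and 16.5% fell. Of 20 further target genes 5 rose and 4 fell, of 10 other ligands 2 rose and 1 fell, and of 12 extracellular modulators 1 fell. Of 3 other receptors 1 rose.

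PMEPA1, a membrane protein that sequesters SMAD2 and SMAD3 and is induced by both TGF-beta and androgen, rose from 7.16 ± 0.08 to 7.80 ± 0.06 (SD, n = 3), an adjusted p of 0.000248. FKBP1A, which holds type I receptors inactive, rose by 0.42 (adjusted p = 0.00109), although 1 of its probe sets differed by -0.01. HIPK2, a nuclear kinase that works with transcriptional corepressors, fell from 7.34 ± 0.12 to 6.01 ± 0.17 (SD, n = 3), an adjusted p of 7.48e-05, and its second probe set differed by -1.07. CTDSPL, one of the phosphatases that act on SMADs, fell by 0.45 (adjusted p = 0.00112), and its other probe sets past the filter differed by -0.25 and -0.14. Of the other phosphatases listed, named after their values were seen, CTDSP2 (0.33), CTDSP1 (0.28) and PPM1A (0.18) rose.

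Ligands outside the list also split. BMP6, expressed in many prostate tumours, rose by 0.78 (adjusted p = 0.00179) from a low level of 4.52. Averaged with its other probe set, which lay below the filter, the BMP6 difference was 0.41. The distant family member GDF15 fell by 1.50 (adjusted p = 2.23e-05) on the probe set that stood for it. The other GDF15 probe set lay below the filter, at 3.06 in controls and 3.35 in knockdown arrays. Averaged over both probe sets, the GDF15 difference was -0.61. INHA rose by 0.25 at 4.03 in controls (adjusted p = 0.0325), a call lost without control replicate 2 or 3 or knockdown replicate 1 or 2. The anti-Müllerian hormone receptor AMHR2 rose by 0.34 (adjusted p = 0.00875), and the secreted BMP modulator TWSG1 fell by 0.41 (adjusted p = 0.00538).

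Among further targets, SNAI2, a repressor of epithelial genes, rose from 4.86 ± 0.39 to 6.34 ± 0.04 (SD, n = 3), an adjusted p of 0.000616. HEY1, a helix-loop-helix repressor induced by BMP and Notch signals, rose by 0.92 (adjusted p = 0.00132), and its second probe set differed by 0.74. The vitamin D receptor VDR fell by 0.49 (adjusted p = 0.000734), and its other probe sets past the filter differed by -0.74 and -0.03. The homeobox gene DLX2 fell by 0.49 (adjusted p = 0.00248), or by 0.20 averaged with its other probe set, which lay below the filter. COL1A1 and FN1, matrix genes that TGF-beta induces in many cells, differed by 0.02 and 0.03. Both were named after their values were seen. Among the 7 fibroblast and smooth muscle markers past the filter, COL3A1 (1.01) and ACTA2 (0.95) rose, and the others, COL1A1 included, did not pass.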

How the data were processed

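The authors deposited linear intensities, 1 per probe set and array. The submitters' processing notes name GCRMA, a method that corrects background, normalizes arrays together and summarises probes. Its version is not given in the sources. Intensities ran from 3.82 to 22631 with array medians of 48.2 to 50.3. Arrays carry no read depth, and their number (3 a group) limits precision. For a pair of arrays, the SD of log2 differences over genes was 0.14 to 0.169 inside a group and 0.364 to 0.377 across groups.

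Of 22277 probe sets, 19064 had 1 gene symbol. Values were log2-transformed, probe sets reaching log2 4 in at least 3 of 6 arrays were kept, and the one with the highest mean stood for its gene. Differences were fitted with limma 3.58.1 (lmFit, eBayes, R 4.3.3) across 9241 genes with Benjamini-Hochberg adjustment. The fit was tested on simulated data. All 41 members are named. Of the other pathway genes, up to 4 called per role with the smallest adjusted p are named, or otherwise the largest difference; COL1A1, FN1, CTDSP1, CTDSP2, PPM1A and the named neighbours were chosen after their values were seen. The members and lists were chosen with earlier results of these data known. Neighbours and promoter windows were also added later. Alternatives covered the filter, a floor, normalization, probe set choice, variance model, array weights, replicate block and leaving out each array.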

Additional observations from a re-analysis of the deposited data

How the results depend on the processing

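For the 32 tested genes, 504 of 528 refitted differences kept their side of the threshold, 11 lost a call and 13 gained one. The sign changed in 12 refits, of ACVR1B, BMP4, SMAD2 and SMAD3, none of them past the threshold. BAMBI ran from -2.32 to -2.24 and ID3 from 0.80 to 0.93 over their alternatives. The lost calls were those of ID4, LTBP1 and TGIF1, and the gained ones those of BMP7, SMAD1 and SKI. ID4 also lost its call with no filter (adjusted p = 0.0536). For the other named pathway genes, 206 of 214 kept their side and 8 were lost, 6 of them INHA's, 1 FKBP1A's (0.26, adjusted p = 0.0532, mean of probe sets past the filter) and 1 CTDSPL's (-0.15, adjusted p = 0.0694, mean of all probe sets). When probe sets whose names end in _x_at or _s_at were dropped, 2 of 20 tested members rose instead of 9 of 32, since ID1, ID2, ID3, SMAD6, LTBP1, ACVR2A and TGIF1 then had none left past the filter. The other pathway genes then had 12 rises and 4 falls among 43 tested. Leaving out each array gave 7 to 9 rises and 6 to 7 falls among the members. Deviations of same-numbered arrays correlated at 0.113, 0.000793 and 0.175, and those of differently numbered arrays at -0.15 to 0.0498. Control replicate 2 correlated better with knockdown replicate 1 than with knockdown replicate 2. Whether replicate numbers pair the arrays was not tested. With the replicate block, 9 members rose and 6 fell, and 21 other pathway genes rose and 10 fell. Array intensities near log2 4 limit what can be said of the dim receptors and ligands.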
